A study of Mus musculus with 20 samples.

Results

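Genes that encode myeloid pattern-recognition receptors, and 1 secreted partner, were followed across 4 groups of mouse skin. They are the C-type lectins Clec4d, Clec4e, Clec4n and Clec7a, the TREM receptors Trem1, Trem2 and Trem3, the formyl peptide receptors Fpr1 and Fpr2, and the peptidoglycan recognition protein Pglyrp1. Members were all probe-sets whose only gene symbol in the platform annotation was one of these names. Of the 10 listed genes, 9 were represented, by 13 of the 45101 probe-sets on the array. Fpr1 was not analysed here.

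Each of the 20 Affymetrix mouse arrays measured RNA from full-thickness dorsal skin of 1 C57BL/6 mouse, a female bought at 6 weeks of age. There were 5 mice per group, and each mouse was 1 array and 1 replicate. In the IMO-8400 group (replicates 1 to 5) skin was injected with IL-23 and the mice received IMO-8400, an oligonucleotide antagonist of TLR7, TLR8 and TLR9. In the IMO-3100 group (replicates 6 to 10) IL-23-injected mice received IMO-3100, an antagonist of TLR7 and TLR9. Saline mice (replicates 11 to 15) had the same IL-23 injections and vehicle in place of antagonist, and naïve mice (replicates 16 to 20) had neither IL-23 nor antagonist. IL-23 (3 µg) was given into the skin daily on days 1 to 4, antagonists (15 mg/kg) or vehicle were given under the skin at a distant site on days 4, 5 and 6, and skin was taken on day 7. The model is short: antagonists were started on the last day of IL-23, and no group received an antagonist without IL-23. The paper describes no group injected with vehicle but no IL-23. A difference of saline from naïve skin therefore cannot separate IL-23 from the injections.

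Myeloid C-type lectins are surface receptors that bind sugars and lipids of fungi, mycobacteria and dying cells. They signal through an ITAM motif, their own or that of the adaptor FcRγ, to the kinase SYK and the CARD9-BCL10-MALT1 complex. TREM receptors have no signalling tail of their own and use the adaptor DAP12 (Tyrobp). Formyl peptide receptors are G protein-coupled receptors that draw neutrophils and monocytes toward bacterial and mitochondrial peptides, and neutrophils and macrophages are the cells best known for carrying these families in inflamed skin.

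The genes sit in clusters. In the RefSeq gene order for mouse, Clec4n, Clec4d and Clec4e follow each other on chromosome 6, Clec7a lies beside the lectin receptor gene Olr1 on the same chromosome, Trem1 and Trem3 are adjacent protein-coding genes on chromosome 17, and Fpr1 and Fpr2 are neighbours on chromosome 17. Promoters of 5 members are shown because they are the genes whose levels are contrasted most below: the neighbours Clec4e and Clec4d, Clec7a, Trem1 and Fpr2. Each is the 250 bases before a RefSeq transcription start in GRCm38.p6, read 5′ to 3′ on the gene's own strand. For Clec7a 2 starts were listed, and only the first in the list was used. Capitals mark matches on either strand to the core motifs of myeloid and inflammatory transcription factors: GAGGAA (PU.1), TTGCNNAA (C/EBP), TGANTCA (AP-1) and TTCNNNGAA (STAT).
Trem1 (chr17:48232489-48232738, plus strand): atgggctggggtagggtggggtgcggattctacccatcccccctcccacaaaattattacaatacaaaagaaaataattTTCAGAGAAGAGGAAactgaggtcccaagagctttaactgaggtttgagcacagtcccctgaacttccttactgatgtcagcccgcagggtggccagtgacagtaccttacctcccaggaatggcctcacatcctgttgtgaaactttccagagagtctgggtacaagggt
Clec4e (chr6:123289872-123290121, minus strand): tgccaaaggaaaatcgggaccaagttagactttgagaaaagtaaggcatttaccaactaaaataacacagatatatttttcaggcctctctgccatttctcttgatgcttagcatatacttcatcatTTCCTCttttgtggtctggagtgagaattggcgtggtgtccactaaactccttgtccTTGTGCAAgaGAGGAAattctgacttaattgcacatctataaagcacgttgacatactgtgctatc
Clec4d (chr6:123261857-123262106, plus strand): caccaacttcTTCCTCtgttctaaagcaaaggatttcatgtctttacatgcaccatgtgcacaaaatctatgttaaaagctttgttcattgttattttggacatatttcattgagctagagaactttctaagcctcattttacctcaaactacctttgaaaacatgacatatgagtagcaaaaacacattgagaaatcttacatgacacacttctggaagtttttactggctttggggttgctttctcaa
Clec7a (chr6:129472780-129473029, minus strand): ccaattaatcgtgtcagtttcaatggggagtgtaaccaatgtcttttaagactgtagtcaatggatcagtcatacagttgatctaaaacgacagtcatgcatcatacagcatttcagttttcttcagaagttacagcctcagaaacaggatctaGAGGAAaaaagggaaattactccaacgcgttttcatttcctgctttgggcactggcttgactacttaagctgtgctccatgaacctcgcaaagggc
Fpr2 (chr17:17887574-17887823, plus strand): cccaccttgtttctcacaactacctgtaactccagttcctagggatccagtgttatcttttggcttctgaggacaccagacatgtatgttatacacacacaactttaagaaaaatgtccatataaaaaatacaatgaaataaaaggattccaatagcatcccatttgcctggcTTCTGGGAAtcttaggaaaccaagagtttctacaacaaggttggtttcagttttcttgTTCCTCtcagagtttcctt
Promoters were listed for 8 of the 10 genes. GAGGAA was present in 7 of these 8 (the 5 above, Trem2 and Pglyrp1), Fpr1 matched none of the 4 motifs, and GAGGAA occurred in 23.3% of 32851 mouse promoters of this length. The C/EBP core was found in Clec4e, close to one of its GAGGAA copies, and in 9.56% of all promoters. The STAT core was found in Trem1, where it runs directly into GAGGAA, and in Fpr2, and in 7.02% of all promoters. The AP-1 core was found in Trem2 and in 6.75% of all promoters. These matches describe letters and were not tested as binding sites.

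Values are GCRMA log2 expression values, in which 2.02 is the lowest value on any array and a difference of 1 is a doubling. A probe-set was called differentially expressed (DEG) at a limma FDR under 0.05 and a fold change over 2, over 30960 tested probe-sets. Array medians ran from 6.09 to 6.29, keratinocyte markers averaged 14.0 to 14.4 in every mouse, and no 2 arrays held the same values. Hair shaft and anagen follicle markers set naïve mice apart from each other. Their mean was 3.16 to 7.42 in IMO-8400 mice, 3.17 to 3.45 in IMO-3100 mice and 2.85 to 3.03 in saline mice. In naïve mice it was 13.33 in replicate 16, 11.97 in replicate 17, 9.78 in replicate 18, 5.72 in replicate 19 and 4.00 in replicate 20. All 10 of these markers were DEGs, lower in saline than in naïve skin. Without naïve replicates 16 and 17, 6 of 10 were DEGs. Naïve mice also spread widely for the receptors, as the values below show, and in whole skin fewer cells of a type cannot be told apart from less RNA per cell.

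Of the 13 member probe-sets, 12 passed the filter. Its level limit of 2 lay under the lowest value, 2.02, so probe-sets were removed only for an SD of 0.1 or less over the 20 arrays. The exception, 1 of 2 probe-sets for Trem2, lay at 2.02 on all 20 arrays. Trem1 and Trem3 passed through their saline values alone, so the counts below are a description of the tested probe-sets. In saline against naïve skin 11 of 12 member probe-sets were DEGs, all higher, from 8 of 9 genes, where 7.58% of all tested probe-sets were higher. Under IMO-3100 6 of 12 were lower than in saline skin, from 5 genes, against 3.73% of all tested probe-sets. Under IMO-8400 7 of 12 were lower than in saline skin, from the same 5 genes, against 3.59% of all tested probe-sets. Those 5 genes were Trem1, Trem3, Clec4e, Clec7a and Pglyrp1.

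The median log2 difference over the 9 genes was 3.70 in saline against naïve skin, -2.11 in IMO-3100 against saline skin and -1.89 in IMO-8400 against saline skin. With Trem1 and Trem3 set to their lower bounds the medians were 2.89, -1.63 and -1.72. The medians over all tested probe-sets were -0.04, 0.01 and 0.01.

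**Figure D1:**
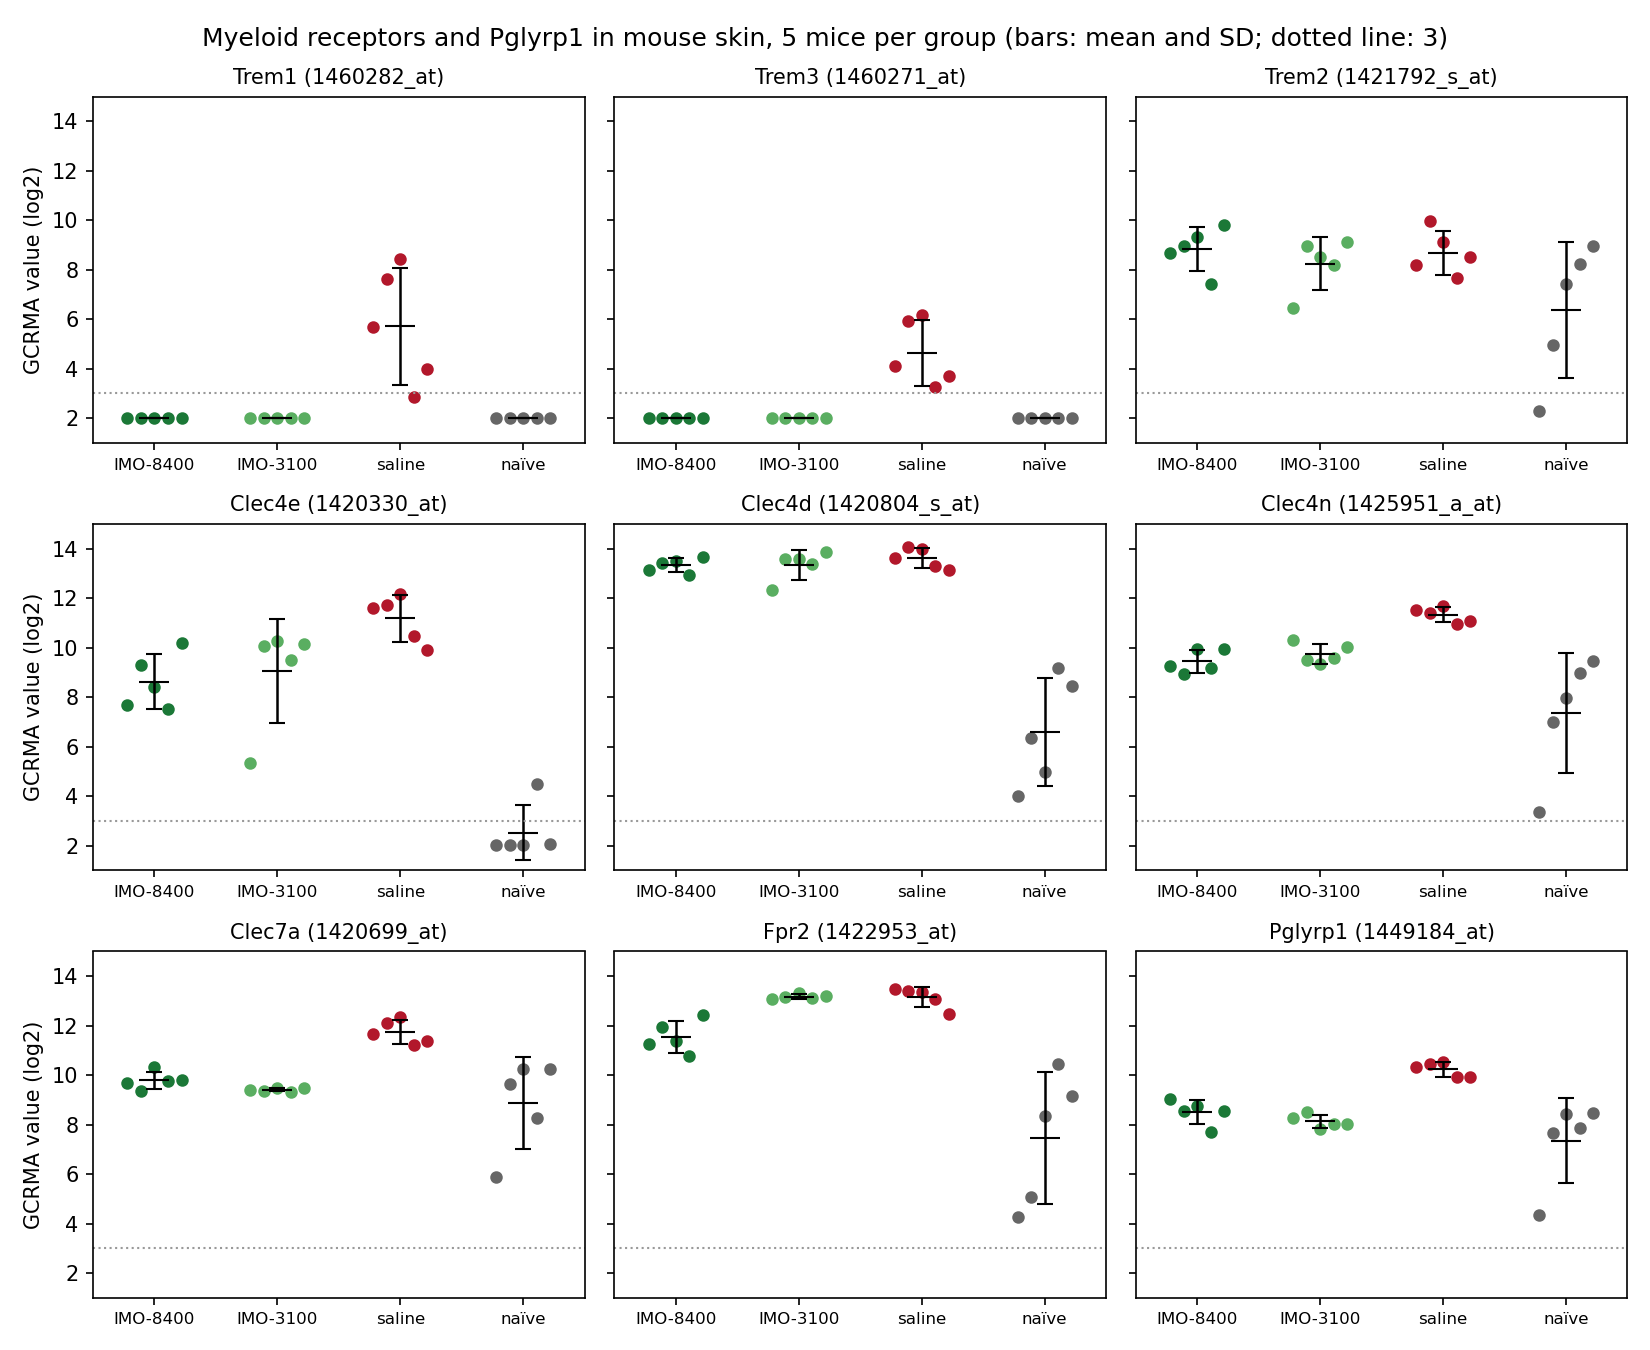
GCRMA values (log2, vertical axis) of the 9 measured genes at 1 probe-set each; every point is 1 mouse, the bars are the group mean and SD of 5 mice, and the dotted line at 3 is the level below which a value was treated as near background. Trem1 and Trem3 lie at 2.02 in all mice but the saline ones, while Clec4d stays between 12.32 and 14.06 in all 3 IL-23 groups.

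Trem1 and Trem3 left the floor of the scale only in saline mice. Trem1 encodes an activating receptor of neutrophils and monocytes that amplifies responses begun by Toll-like receptors. Its main probe-set read 2.02 in each of the 5 IMO-8400 and 5 IMO-3100 mice, 5.70, 7.61, 8.45, 2.84 and 3.99 in the 5 saline mice, and 2.02 in each of the 5 naïve mice. Every saline value lay above every other value, although the saline mice were far apart from each other. Against a background level of 3, Trem1 was at least 6.59-fold higher in saline than in naïve skin (adjusted p = 0.00039). It was at least 6.59-fold lower in IMO-3100 than in saline skin (adjusted p = 0.00119), and by the same bound lower in IMO-8400 than in saline skin (adjusted p = 0.00103). These p-values, like those printed with bounds below, test the fitted difference of group means and not the bound. They belong to a probe-set that passed the filter through its saline values. Their error pools an SD of 2.36 in saline mice with SDs of 0 in the other groups, so it is smaller than the saline spread. With no filter Trem1 was a DEG in the same 3 comparisons (adjusted p = 0.0012, 0.00308 and 0.00281). That run keeps the same floor values, so it gives no separate support. Over 27 alternative runs the adjusted p reached 0.0209 against naïve skin, 0.0319 for IMO-3100 and 0.0311 for IMO-8400. The bound was 4.11-fold without saline replicate 13 and 10.9-fold without saline replicate 14.

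The other Trem1 probe-set read 2.02 in all IMO-8400 and IMO-3100 mice, 2.12, 7.17, 7.32, 2.42 and 2.33 in saline mice, and 2.02 in all naïve mice. It was a DEG in the same 3 comparisons, by at least 2.41-fold, with adjusted p of 0.0293 against naïve skin, 0.0449 for IMO-3100 and 0.0437 for IMO-8400. Saline replicates 12 and 13 were highest at both probe-sets. Here the other 3 saline mice were below 3, and the bound was 1.46-fold without replicate 12 and 1.42-fold without replicate 13. The SD was 2.72 in saline mice and at most 0.001 in the other groups, so here too the pooled error was smaller than the saline spread.

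Trem3, an activating DAP12-coupled receptor of mouse myeloid cells, followed the same layout. It read 2.02 in all IMO-8400 and IMO-3100 mice, 4.12, 5.91, 6.18, 3.26 and 3.69 in saline mice, again highest in replicates 12 and 13, and 2.02 in all naïve mice. It was at least 3.10-fold higher in saline than in naïve skin (adjusted p = 4.91e-05). The same bound held for lower values in IMO-3100 skin (adjusted p = 0.000239) and in IMO-8400 skin (adjusted p = 0.000202), each against saline. The SD was 1.33 in saline mice and 0 in the other groups, so the pooled error of the fit was smaller than the saline spread. These levels are close to the floor: when values under 4 were set to 4, Trem3 was no longer a DEG in any of the 3 comparisons (adjusted p = 0.0596, 0.082 and 0.0797).

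Trem2, a lipid-sensing receptor of tissue macrophages, did not share this pattern. Its tested probe-set, whose design can match more than 1 transcript, read 8.69, 8.97, 9.31, 7.43 and 9.82 in IMO-8400 mice. IMO-3100 mice read 6.46, 8.96, 8.52, 8.18 and 9.11. Saline mice read 8.18, 9.96, 9.13, 7.68 and 8.50, and naïve mice 2.29, 4.95, 7.42, 8.23 and 8.97. The 3 IL-23 groups overlapped throughout, and 3 of 5 naïve mice lay in their range. The log2 difference was 2.32 (95% interval 0.34 to 4.30, adjusted p = 0.0534) for saline against naïve. It was -0.44 (-2.42 to 1.54, adjusted p = 0.792) for IMO-3100 against saline and 0.16 (-1.82 to 2.14, adjusted p = 0.94) for IMO-8400 against saline.

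The first of these lay at the threshold. It passed as a DEG with the stricter filter (adjusted p = 0.0488), after quantile normalization (0.0497), with a trended and robust prior (0.0499), and without naïve replicate 18 (0.0484), 19 (0.0288) or 20 (0.0152).

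Clec4e encodes Mincle, the receptor for mycobacterial glycolipids and for the nuclear protein SAP130 of dying cells. It was near background in most naïve mice and rose with the widest margin of the 9 genes in saline skin. Its main probe-set read 7.67, 9.31, 8.41, 7.54 and 10.18 in IMO-8400 mice and 5.34, 10.06, 10.27, 9.49 and 10.17 in IMO-3100 mice. Saline mice read 11.62, 11.72, 12.19, 10.49 and 9.91, and naïve mice 2.02, 2.02, 2.03, 4.50 and 2.07. All 15 IL-23 mice lay above all naïve mice, and the antagonist groups overlapped saline only through saline replicate 15.

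Saline skin exceeded naïve skin by 8.66 ± 0.83 log2 units (SE, n = 5 each, 404-fold, adjusted p = 4.08e-07). The fold rests on a naïve mean of 2.53, in which 4 of 5 mice were below 3. Clec4e fell in IMO-8400 skin against saline by 2.56 ± 0.83 (5.91-fold, adjusted p = 0.027). In IMO-3100 skin the difference was -2.12 ± 0.83 and missed the threshold (adjusted p = 0.0646), with replicate 6 at 5.34 while the other 4 mice were at 9.49 to 10.27.

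The IMO-8400 call was lost with no filter (adjusted p = 0.0536) and without IMO-8400 replicate 1 or 4 or saline replicate 11, 12 or 13 (adjusted p = 0.0524 to 0.0699).

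A further Clec4e probe-set gave the same order of group means. It read 4.51, 5.17, 4.37, 2.92 and 6.20 in IMO-8400 mice, 2.73, 6.04, 6.92, 5.81 and 6.08 in IMO-3100 mice, and 8.19, 8.55, 9.51, 7.39 and 5.83 in saline mice. Naïve mice were at 2.10 to 2.34. Here both antagonist groups were DEGs against saline, with log2 differences of -3.26 (adjusted p = 0.00312) for IMO-8400 and -2.38 (adjusted p = 0.0211) for IMO-3100. Saline was at least 29.7-fold above naïve (adjusted p = 7.7e-06).

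Clec4d encodes MCL, the partner that assembles with Mincle on the cell surface, and its gene lies next to Clec4e. The only Clec4d probe-set, whose design can match more than 1 transcript, was high in all IL-23 groups. IMO-8400 mice read 13.15, 13.41, 13.52, 12.95 and 13.68, IMO-3100 mice 12.32, 13.59, 13.60, 13.38 and 13.88, and saline mice 13.64, 14.06, 13.99, 13.31 and 13.15. Naïve mice read 4.00, 6.36, 4.99, 9.17 and 8.44, and none reached an IL-23 mouse.

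Clec4d rose in saline against naïve skin by 7.04 ± 0.69 log2 units (SE, n = 5 each, 131-fold, adjusted p = 5.57e-07). IMO-3100 differed from saline by -0.27 (95% interval -1.72 to 1.18, adjusted p = 0.831) and IMO-8400 by -0.28 (-1.74 to 1.17, adjusted p = 0.808). Whether Clec4d and its neighbour Clec4e differed in response was not tested. The difference of saline from naïve was 6.39 without naïve replicate 16 and 7.68 without naïve replicate 19.

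Clec4n encodes Dectin-2, the receptor for fungal α-mannans, and lies on the other side of Clec4d. Its main probe-set read 9.26, 8.92, 9.94, 9.19 and 9.96 in IMO-8400 mice and 10.31, 9.50, 9.33, 9.57 and 10.03 in IMO-3100 mice. Saline mice read 11.54, 11.39, 11.70, 10.97 and 11.09, and naïve mice 3.37, 6.99, 7.99, 9.00 and 9.48. Every saline mouse lay above every antagonist mouse, and the antagonist mice overlapped the higher naïve mice.

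Clec4n was 3.97 ± 0.75 log2 units higher in saline than in naïve skin (SE, n = 5 each, 15.7-fold, adjusted p = 0.000381), or 2.97 higher without naïve replicate 16. The differences of IMO-3100 (-1.59 ± 0.75, adjusted p = 0.124) and IMO-8400 (-1.89 ± 0.75, adjusted p = 0.0677) from saline did not pass in the fit of 4 groups, whose error pools SDs of 0.47 in IMO-8400, 0.41 in IMO-3100, 0.30 in saline and 2.43 in naïve mice. Both passed when only the 2 groups compared were fitted (adjusted p = 0.0013 for IMO-3100 and 0.000824 for IMO-8400), and without naïve replicate 16 (adjusted p = 0.00324 and 0.000874 in that order). The other Clec4n probe-set differed by -1.66 and -1.71 from saline (adjusted p = 0.141 for IMO-3100 and 0.125 for IMO-8400) and by 4.04 between saline and naïve (adjusted p = 0.000671).

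Clec7a encodes Dectin-1, the β-glucan receptor that carries its own SYK-binding motif. It read 9.68, 9.38, 10.32, 9.77 and 9.81 in IMO-8400 mice and 9.41, 9.37, 9.48, 9.33 and 9.50 in IMO-3100 mice. Saline mice read 11.68, 12.10, 12.34, 11.21 and 11.37, and naïve mice 5.88, 9.65, 10.25, 8.29 and 10.26. Saline mice stood above all others. IMO-3100 mice lay inside the naïve range, and IMO-8400 mice did too except replicate 3, at 10.32 where the highest naïve mouse was at 10.26. The SD was 0.34 in IMO-8400, 0.07 in IMO-3100, 0.48 in saline and 1.85 in naïve mice, so the IMO-3100 mice lay closest together.

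Clec7a rose in saline against naïve skin by 2.87 ± 0.58 (SE, n = 5 each, 7.33-fold, adjusted p = 0.00065). It fell by 2.32 ± 0.58 in IMO-3100 skin (5.00-fold, adjusted p = 0.00701) and by 1.95 ± 0.58 in IMO-8400 skin (3.86-fold, adjusted p = 0.0176), both against saline. These calls held in every alternative run, and without naïve replicate 16 the difference of saline from naïve was 2.13.

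Fpr2 encodes the formyl peptide receptor that also binds serum amyloid A, cathelicidin and annexin A1. It was the member with the largest fitted difference between the antagonists. IMO-8400 mice read 11.26, 11.94, 11.37, 10.77 and 12.44. IMO-3100 mice read 13.10, 13.15, 13.31, 13.12 and 13.22, saline mice 13.50, 13.38, 13.36, 13.09 and 12.46, and naïve mice 4.27, 5.07, 8.35, 10.46 and 9.17. IMO-3100 mice lay within the saline range. All 5 IMO-8400 mice lay below every IMO-3100 and every saline mouse, although the highest of them (12.44) almost met the lowest saline mouse (12.46).

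Fpr2 rose in saline against naïve skin by 5.69 ± 0.82 (SE, n = 5 each, 51.7-fold, adjusted p = 3.21e-05). IMO-3100 differed from saline by 0.02 (95% interval -1.71 to 1.75, adjusted p = 1). IMO-8400 differed from saline by -1.60 (-3.33 to 0.13, adjusted p = 0.155), which did not pass in the fit of 4 groups, where naïve mice had an SD of 2.67. It passed with only the 2 groups in the fit (adjusted p = 0.00538) and without naïve replicates 16 and 17 (adjusted p = 0.00224). Leaving out 1 naïve mouse moved the difference of saline from naïve to 4.89 (replicate 16), 5.09 (replicate 17) or 6.44 (replicate 19). Means of the monocyte and macrophage markers were 12.43 to 13.00 in IMO-8400 mice and 13.02 to 13.23 in IMO-3100 mice, ranges that almost met. Between the antagonists 0 of 12 of these markers were DEGs, and 0 had an unadjusted limma p under 0.05. The part of these markers in the Fpr2 values was not tested.

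Pglyrp1 encodes a bactericidal protein of neutrophil granules that binds peptidoglycan and, in human cells, the TREM-1 receptor. It read 9.03, 8.55, 8.74, 7.72 and 8.55 in IMO-8400 mice and 8.27, 8.51, 7.81, 8.02 and 8.03 in IMO-3100 mice. Saline mice read 10.32, 10.47, 10.54, 9.94 and 9.93, and naïve mice 4.34, 7.65, 8.42, 7.87 and 8.47. Saline mice again stood above all others, and the antagonist groups lay close to 4 of the 5 naïve mice.

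Pglyrp1 rose by 2.89 ± 0.54 in saline against naïve skin (SE, n = 5 each, 7.40-fold, adjusted p = 0.000378), or by 2.13 without naïve replicate 16. It fell by 2.11 ± 0.54 in IMO-3100 skin (4.31-fold, adjusted p = 0.00868) and by 1.72 ± 0.54 in IMO-8400 skin (3.29-fold, adjusted p = 0.0248), both against saline. The IMO-8400 call was lost without IMO-8400 replicate 4 (adjusted p = 0.0652), saline replicate 12 (0.0511) or saline replicate 13 (0.0558).

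**Figure D2:**
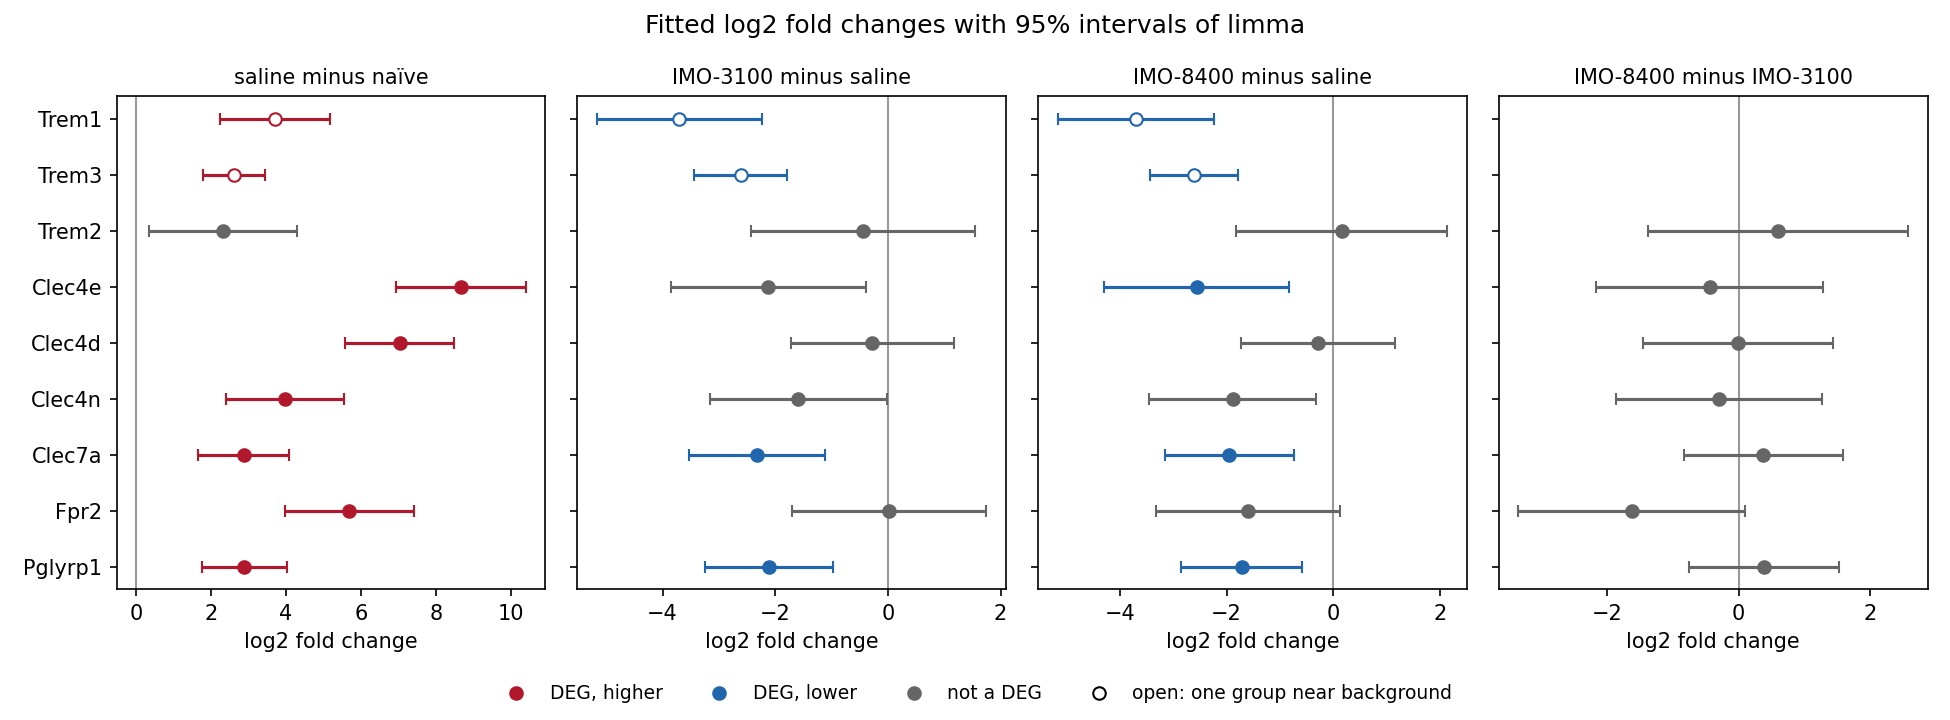
Fitted log2 fold changes (horizontal axes) of the 9 genes with 95% limma intervals, 5 mice per group; red and blue points are DEGs, grey points are not, and open points have 1 group near background, so their position is not a bound. Trem1 and Trem3 have no point in the comparison of the antagonists because both groups lay at 2.02. The antagonist intervals of Clec4d, Trem2 and, for IMO-3100, Fpr2 straddle 0, while those of Clec7a and Pglyrp1 do not.

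The 2 antagonists, given at the same dose and on the same days, were compared directly as 1 pair. No member was a DEG in IMO-8400 against IMO-3100 skin, where 0.578% of all tested probe-sets were DEGs in either direction, and none had an unadjusted limma p under 0.05 (lowest 0.064). Fpr2 had the largest fitted difference, -1.62 (95% interval -3.35 to 0.10, adjusted p = 0.262, lower in 5 of 5 IMO-8400 mice than in any IMO-3100 mouse). It became a DEG with only these 2 groups in the fit (adjusted p = 0.0162) and without naïve replicates 16 and 17 (adjusted p = 0.0131). For the other tested genes above background the intervals were wide: -0.44 (-2.17 to 1.29) for Clec4e, -0.29 (-1.86 to 1.28) for Clec4n, -0.01 (-1.46 to 1.44) for Clec4d, 0.37 (-0.84 to 1.58) for Clec7a, 0.39 (-0.75 to 1.53) for Pglyrp1 and 0.60 (-1.38 to 2.58) for Trem2. Each of these 6 intervals still held a 2-fold difference in at least 1 direction, and Trem1 and Trem3 gave no value.

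Antagonist-treated skin was also set against naïve skin. In IMO-3100 skin 6 of 12 member probe-sets were higher than in naïve skin, from 4 genes, against 4.90% of all tested probe-sets. In IMO-8400 skin 4 of 12 were higher, from 3 genes, against 3.60% of all tested probe-sets. All these comparisons share the naïve mice, and those with saline share the saline mice.

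Clec4d remained far above naïve skin, by 6.76 log2 units in IMO-3100 mice (adjusted p = 3.17e-06) and by 6.75 in IMO-8400 mice (adjusted p = 4.51e-06). Clec4e was higher by 6.54 in IMO-3100 mice (adjusted p = 2.72e-05) and by 6.10 in IMO-8400 mice (adjusted p = 8.74e-05). Fpr2 was higher by 5.71 in IMO-3100 mice (adjusted p = 9.64e-05) and by 4.09 in IMO-8400 mice (adjusted p = 0.00267). Without IMO-3100 replicate 6 the Clec4e difference for IMO-3100 was 7.47. Without naïve replicate 16 Clec4d was higher by 6.11 in IMO-3100 and 6.10 in IMO-8400 mice, and Fpr2 by 4.92 in IMO-3100 and 3.29 in IMO-8400 mice. Without naïve replicate 17 Fpr2 was higher by 5.12 in IMO-3100 and 3.49 in IMO-8400 mice. Without naïve replicate 19 Clec4d was higher by 7.41 in IMO-3100 and 7.39 in IMO-8400 mice, and Fpr2 by 6.46 in IMO-3100 and 4.84 in IMO-8400 mice.

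Clec4n was higher by 2.38 in IMO-3100 mice (adjusted p = 0.0242) and differed by 2.09 in IMO-8400 mice (adjusted p = 0.0608). Without IMO-3100 replicate 6 or naïve replicate 17 the IMO-3100 call was lost (adjusted p = 0.0516 and 0.0514), without naïve replicate 16 the IMO-3100 difference was 1.38, and without naïve replicate 19 or 20 the IMO-8400 difference became a DEG (adjusted p = 0.0347 and 0.0186). Clec7a differed from naïve skin by 0.55 in IMO-3100 mice (adjusted p = 0.502) and by 0.93 in IMO-8400 mice (adjusted p = 0.278). Pglyrp1 differed by 0.78 in IMO-3100 mice (adjusted p = 0.298) and by 1.17 in IMO-8400 mice (adjusted p = 0.143), and Trem2 by 1.88 (adjusted p = 0.147) and 2.47 (adjusted p = 0.0772) in that order.

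The values of 8 of the 9 genes can be described in 3 layouts, and Trem2, whose groups all overlapped, was in none. Trem1 and Trem3 were at the floor in both antagonist groups. Clec7a, Pglyrp1 and Clec4n had antagonist values below every saline mouse and overlapping naïve mice, although Clec4n was a DEG above naïve skin in IMO-3100 mice. Clec4d, Clec4e and Fpr2 were DEGs above naïve skin in both antagonist groups, with Clec4e below saline on average. Fpr2 lay below every saline mouse in IMO-8400 mice, without being a DEG against saline in the fit of 4 groups. These layouts were drawn after the values were seen.

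The mean over the 9 genes summarised each mouse. It ran from 7.71 to 8.72 in IMO-8400 mice, 7.70 to 8.67 in IMO-3100 mice, 9.20 to 10.87 in saline mice and 3.36 to 6.84 in naïve mice, without overlap between saline and any other group. Among naïve mice the mean was 3.36, 5.19, 5.94, 6.84 and 6.77 for replicates 16 to 20, lowest in replicates 16 and 17, where hair markers were highest. Monocyte and macrophage markers ran the same way in these mice, with means of 10.09, 11.37, 11.87, 11.87 and 12.22. The part of hair growth and of macrophage content in the naïve receptor values was not tested.

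**Figure D3:**
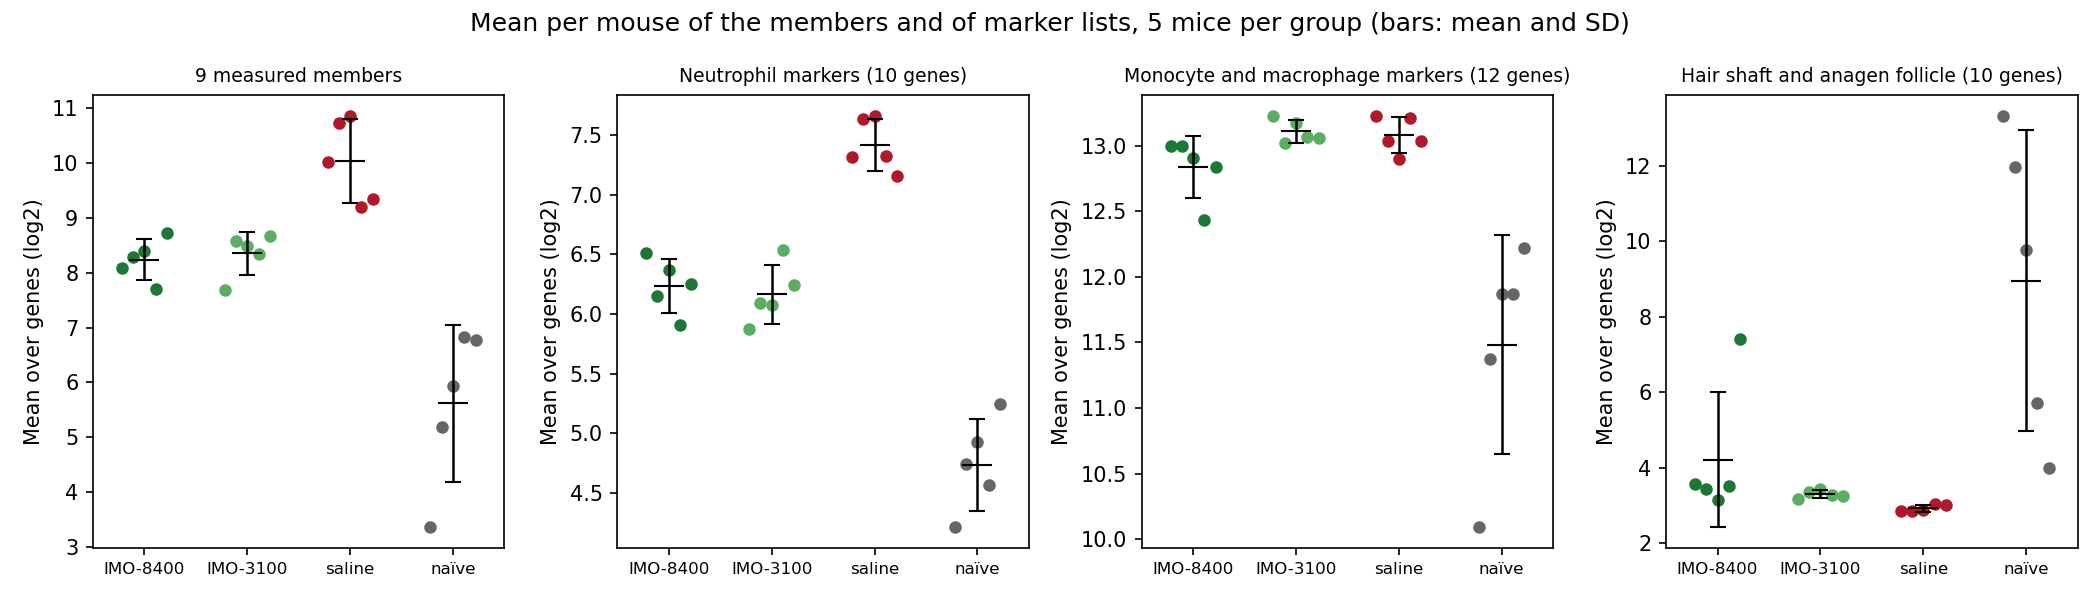
Mean log2 value per mouse (points, vertical axes with separate scales that do not start at 0) over the 9 members, 10 neutrophil, 12 monocyte and macrophage and 10 hair markers, with the group mean and SD of 5 mice. Neutrophil markers, like the members, were highest in saline mice (7.16 to 7.66), macrophage markers were lower in every IMO-8400 mouse (12.43 to 13.00) than in any IMO-3100 mouse (13.02 to 13.23) while saline mice overlapped both, and hair markers ranged from 4.00 to 13.33 in naïve mice.

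Most tested neutrophil markers rose in saline skin and fell under the antagonists. Of 10 neutrophil markers represented, 7 were tested, and 6 rose in saline against naïve skin, among them the G-CSF receptor gene Csf3r (5.46) and the calprotectin chains S100a8 (5.20) and S100a9 (4.93). The paper counts S100a8 and S100a9 among keratinocyte genes regulated by IL-17, so their values cannot be assigned to neutrophils alone. Under IMO-3100 4 of 7 neutrophil markers fell against saline and under IMO-8400 5 of 7. The neutrophil collagenase gene Mmp8 averaged 2.50 in IMO-8400, 2.02 in IMO-3100, 6.72 in saline and 2.02 in naïve skin. The neutrophil marker mean was 5.91 to 6.51 in IMO-8400 mice, 5.87 to 6.54 in IMO-3100 mice, 7.16 to 7.66 in saline mice and 4.21 to 5.24 in naïve mice. The granule genes Elane, Mpo, Ltf and Ngp, which mark immature neutrophils, averaged 2.02 to 2.11 in every group.

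Monocyte and macrophage markers gave another picture. Of 12 tested, 4 rose in saline against naïve skin, the scavenger receptors Marco (9.52) and Msr1 (3.31), the endotoxin coreceptor Cd14 (2.52) and the surface receptor gene Adgre1 (1.49), and Cd163 fell by 1.35. At the 1 probe-set used per gene, none was a DEG under either antagonist against saline by limma (unadjusted p under 0.05 for 1 under IMO-3100 and 2 under IMO-8400). Ccr2 averaged 11.87 in IMO-8400, 12.04 in IMO-3100, 12.75 in saline and 11.77 in naïve skin at its probe-set. The paper lists other Ccr2 entries that rose with IL-23 and fell under both antagonists. Without naïve replicates 16 and 17, 2 of 12 were DEGs for IMO-8400. The marker mean was 12.43 to 13.00 in IMO-8400 mice, 13.02 to 13.23 in IMO-3100 mice and 12.90 to 13.23 in saline mice. Of 7 dendritic and Langerhans cell markers 1 rose and 1 fell in saline against naïve skin, and 0 of 6 keratinocyte markers were DEGs by limma (unadjusted p under 0.05 for 4). The part of neutrophil numbers in the levels of Trem1, Trem3 and Pglyrp1 was not tested.

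Of 11 adaptors and signalling proteins of these receptors tested, 6 rose in saline against naïve skin (median 1.19), led by the exchange factor Vav1 (2.87 ± 0.55, adjusted p = 0.00044), the adaptor DAP10 (Hcst, 2.60 ± 0.21, adjusted p = 5.58e-08), the kinase Btk (1.84 ± 0.52, adjusted p = 0.00786) and the kinase Syk (1.45 ± 0.29, adjusted p = 0.000721; all SE, n = 5 each). Without naïve replicates 16 and 17 the count was 3. None of the 11 was a DEG under IMO-3100 (median -0.13) or IMO-8400 (median -0.31) against saline by limma, with unadjusted p under 0.05 for 0 under IMO-3100 and 3 under IMO-8400. Under IMO-8400 Vav1 differed from saline by -0.98 (adjusted p = 0.195), Plcg2, a phospholipase, by -0.65 (adjusted p = 0.0181, under the fold limit; named after its value was seen) and Btk by -0.64 (adjusted p = 0.382). The mean of the 11 per mouse was 10.89 to 11.35 in IMO-8400, 11.37 to 11.66 in IMO-3100, 11.46 to 11.69 in saline and 9.15 to 10.89 in naïve mice, so IMO-8400 mice lay below all saline and all IMO-3100 mice.

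The 2 adaptors used directly by the members, named for that role, had the same order of group means. Tyrobp averaged 13.67 in IMO-8400, 13.97 in IMO-3100, 13.88 in saline and 12.93 in naïve skin. Fcer1g, the FcRγ chain, averaged 13.45 in IMO-8400, 13.78 in IMO-3100, 13.72 in saline and 12.52 in naïve skin. Fcer1g was a DEG in saline against naïve skin (1.19, adjusted p = 0.00579), and Tyrobp (0.94, adjusted p = 0.0136) was under the fold limit.

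Relatives of the members moved in different directions. Of 12 other myeloid C-type lectins tested, 4 were higher and 3 lower in saline against naïve skin. Clec5a, a DAP12-coupled lectin, rose by 3.90 (adjusted p = 0.000447) and Clec4a2 by 2.09 (adjusted p = 0.00456), while the galactose-type lectin Mgl2 fell by 3.06 (adjusted p = 0.00112) and Cd209a, a mouse DC-SIGN gene, fell by 1.72 (adjusted p = 0.0147). Under IMO-8400 Clec5a fell by 2.51 against saline (adjusted p = 0.0182), and under IMO-3100 it differed by -1.92 (adjusted p = 0.0643). Clec4b1 was the one other lectin higher under IMO-3100 than in saline skin, by 1.94 (adjusted p = 0.0193), with a difference of -0.01 under IMO-8400 (adjusted p = 1). Olr1, the neighbour of Clec7a, was lower under both antagonists, with means of 2.31 in IMO-8400, 2.41 in IMO-3100, 3.52 in saline and 2.24 in naïve skin, close to the floor.

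Of 3 other TREM genes with a probe-set, Treml1 lay at 2.02 on all 20 arrays and was not tested. Treml2 averaged 2.03 in IMO-8400, 2.08 in IMO-3100, 4.42 in saline and 2.02 in naïve skin. Treml4, the next gene after Trem3, averaged 2.72 in IMO-8400, 2.83 in IMO-3100, 5.01 in saline and 2.49 in naïve skin. In saline replicates 11 to 14 Treml2 read 4.38, 7.12, 6.26 and 2.33 and Treml4 read 5.54, 6.51, 5.36 and 4.94, above every mouse of the other groups. Saline replicate 15 read 2.02 for Treml2 and 2.72 for Treml4, within the antagonist range. Both were DEGs in saline against naïve skin (adjusted p = 0.00784 for Treml2 and 0.000153 for Treml4) and in each antagonist against saline (adjusted p = 0.0161 and 0.00163 for IMO-3100, 0.0138 and 0.000997 for IMO-8400). Pglyrp2 likewise averaged 2.19 in IMO-8400, 2.07 in IMO-3100, 4.03 in saline and 2.06 in naïve skin, a DEG in the same 3 comparisons (adjusted p = 2.14e-09 for IMO-8400, 8.41e-10 for IMO-3100 and 4.01e-10 for saline against naïve). The formyl peptide receptor relatives Fpr-rs3 and Fpr-rs4 were at 2.02 on every array.

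Of 7 tested genes listed as ligands, 4 rose in saline against naïve skin (median of the 7, 2.73). Under each antagonist 3 fell against saline (medians -0.26 for IMO-3100 and -0.32 for IMO-8400). The list took the gene whose symbol is Sap130. That gene is not the one for the spliceosome protein SAP130 that binds Mincle, so it is not a ligand gene. Sap130 was a DEG in none of these comparisons, and the IMO-3100 median is its own value. The serum amyloid A genes, whose proteins act on Fpr2, rose by 8.90 (Saa1), 7.78 (Saa3) and 7.24 (Saa2), and the cathelicidin gene Camp rose by 2.73. Under IMO-3100 Saa2 fell by 5.67 (adjusted p = 2.33e-07), Saa1 fell by 4.59 (adjusted p = 7.18e-05) and Camp fell by 2.94 (adjusted p = 0.000567), each against saline. Under IMO-8400 Saa2 fell by 6.79 (adjusted p = 2.23e-08), Saa1 fell by 4.62 (adjusted p = 5.56e-05) and Camp fell by 2.16 (adjusted p = 0.00406). Saa3 differed by -0.18 (adjusted p = 0.706) under IMO-3100 and -0.32 (adjusted p = 0.437) under IMO-8400. Serum amyloid genes are near-identical, and the Saa1 and Saa2 probe-sets used carry suffixes that mark matches to more than 1 transcript.

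**Figure D4:**
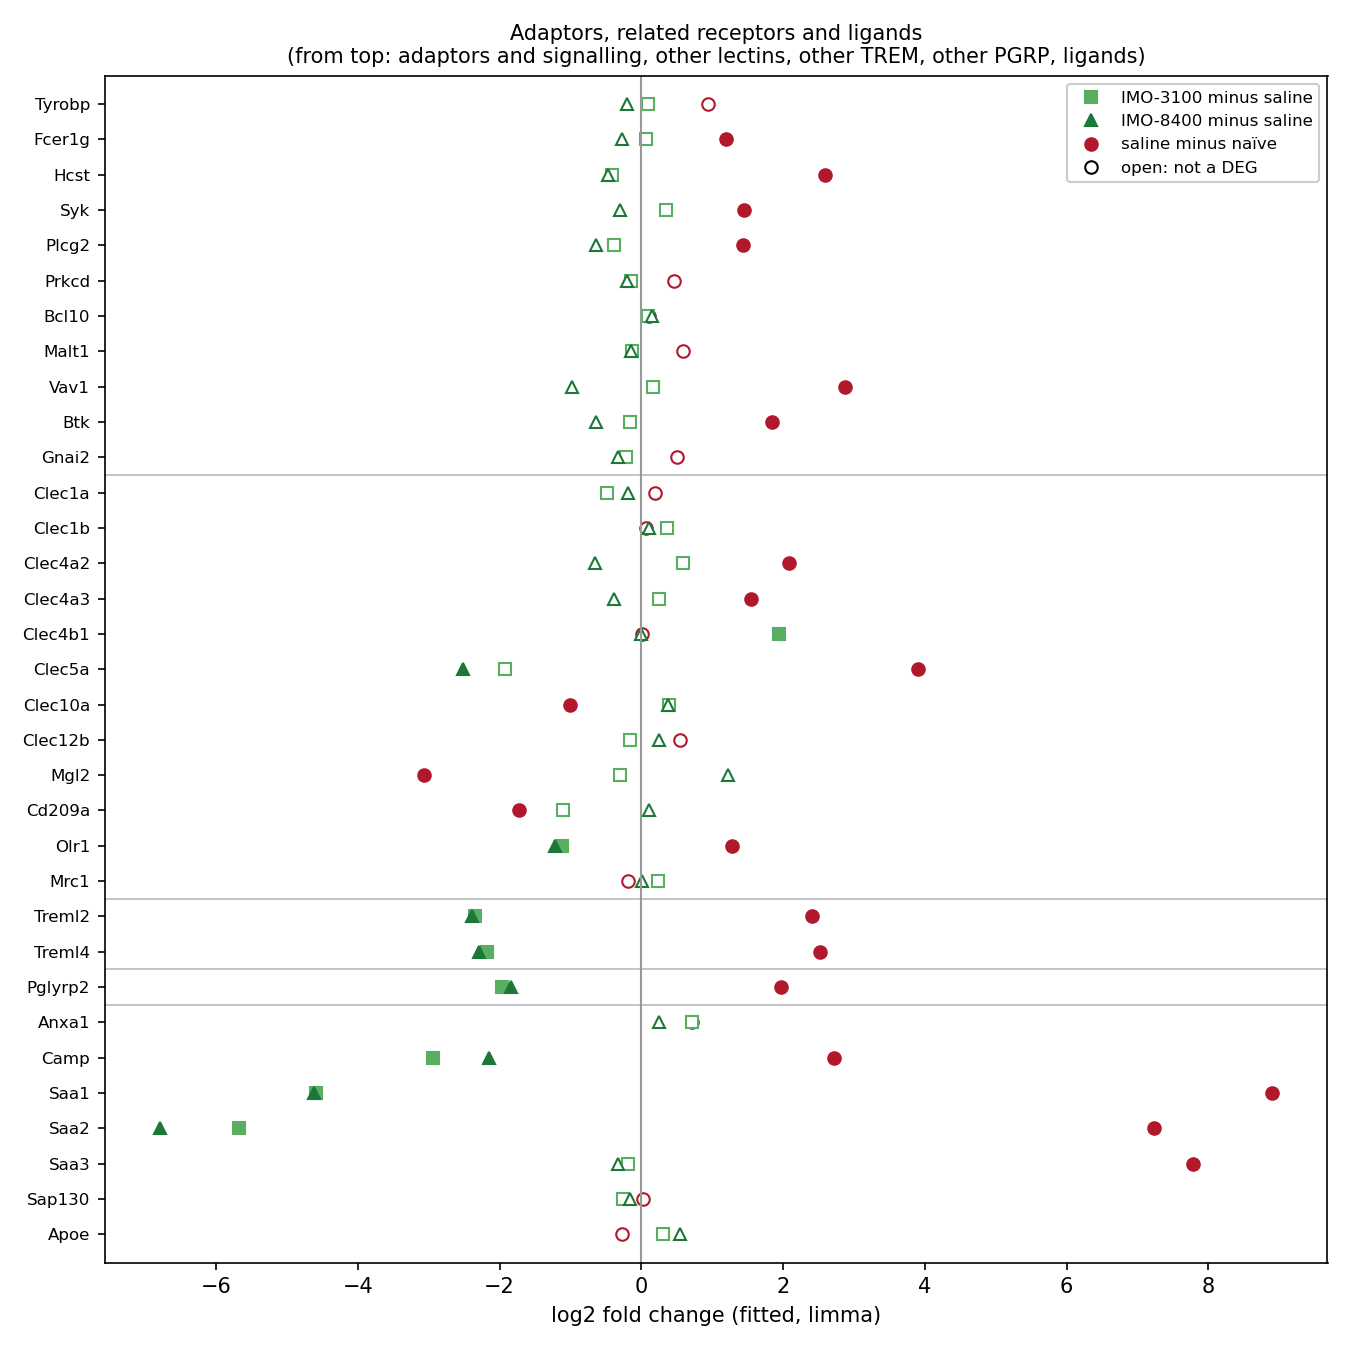
Fitted log2 fold changes (horizontal axis) of the tested adaptors, related receptors and genes listed as ligands (rows), 5 mice per group. IMO-3100 and IMO-8400 against saline are green and saline against naïve is red. Filled symbols are DEGs. No adaptor has a filled antagonist symbol and 6 of 11 have a filled saline symbol. Treml2, Treml4, Pglyrp2, Olr1, Camp, Saa1 and Saa2 are filled in all comparisons shown. Clec5a is filled for saline against naïve and for IMO-8400 against saline. Differences of Treml2, Treml4, Pglyrp2 and Olr1 rest on group means below 3.

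Genes other than the members were ranked by how closely their values followed each member across all 20 arrays, as the root mean square difference after centring each gene on its own mean. Clec4d was followed most closely by Saa3 (0.91 log2 units), Slc13a3 (1.03) and the chemokine gene Ccl3 (1.14), which averaged 10.49 in IMO-8400, 11.50 in IMO-3100, 11.28 in saline and 2.78 in naïve skin. Clec4e was closest to Ly6i (0.74), the neutrophil chemokine gene Cxcl2 (0.93) and Serpinb3a (1.24). Clec4n was closest to Samsn1 (0.55), Hcls1 (0.55) and Cyp7b1 (0.56).

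Clec7a and Pglyrp1 shared 2 of their 3 closest genes, the killer cell lectin-like receptor gene Klrb1a (0.50 and 0.38) and the integrin gene Itgb7 (0.61 and 0.41); the third was Rab19 (0.61) for Clec7a and the T cell gene Cd2 (0.45) for Pglyrp1. Trem1 was closest to Gpr84 (0.63), to Cd177, a neutrophil surface gene (0.64), and to Treml2 (0.68), and Trem3 to H2-Q10 (0.31), Draxin (0.31) and Gpr84 (0.37). Fpr2 was closest to the Toll-like receptor gene Tlr13 (0.53), the kinase gene Fgr (0.65) and Sirpb1a (0.69). Sirpb1a averaged 9.48 in IMO-8400, 11.67 in IMO-3100, 11.91 in saline and 6.57 in naïve skin, the order of groups seen for Fpr2 between IMO-8400 and IMO-3100. All these genes were measured on the same 20 arrays and share their group differences, so the ranking is a description.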

How the data were processed

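The authors deposited 1 table of log2 expression values for 20 Affymetrix mouse whole-genome arrays, made with GCRMA, which corrects background, normalizes and summarises probes; its floor of 2.019 compresses the change of dim genes. The number of arrays, 5 per group, limits the precision. Groups came from the sample labels, which give no batch. Probe-sets above 2 in at least 3 arrays with an SD above 0.1 were tested with limma 3.58.1 in R 4.3.3 on 4 group means, with Benjamini-Hochberg adjustment over 30960 probe-sets. The procedure was tested on simulated data.

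All member probe-sets were named, and the one with the highest mean over the 20 arrays stood for its gene. Other genes were listed by role, with at most 4 DEGs of largest change named per list and comparison. Members and lists were chosen with earlier results of these data known. A group with all 5 arrays under 3 was near background, and its fold is a bound against 3. The p-value printed with a bound tests the fitted difference of group means, and the bound itself was not tested. Gene symbols came from the platform annotation: 34958 probe-sets had 1 symbol, 932 several and 9211 none, and 34754 matched a RefSeq gene by Entrez identifier with no symbol changed. Promoters came from RefSeq (GRCm38.p6); the sources used here name no build for the array. The series' design text mentions 2 doses of 1 antagonist, whereas the labels name 2 agents; the labels were followed. Alternatives were no filter, a stricter filter, quantile normalization, shifting arrays to the same 75th percentile, a floor of 4, fits of 2 groups, a trended robust prior, and arrays left out.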

Additional observations from a re-analysis of the deposited data

Results flagged for a closer look

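Of 38 groups of 5 mice examined for a single distant value, 4 had one, and chance flags about 1 group in 20. IMO-3100 replicate 6 was low at both Clec4e probe-sets, at 5.34 where the other 4 mice were at 9.49 to 10.27, and at 2.73 where they were at 5.81 to 6.92. Naïve replicate 19 read 4.50 for Clec4e where the other naïve mice were at 2.02 to 2.07. Naïve replicate 16 read 4.34 for Pglyrp1 where the other naïve mice were at 7.65 to 8.47.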

How the results depend on the processing

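Replicate numbers differ in all 20 mice. No paired analysis was possible because the groups share no replicate number. With the stricter filter, which leaves out Trem1 and Trem3, 3 member probe-sets were DEGs for IMO-3100 and 4 for IMO-8400 against saline. For IMO-8400 against IMO-3100 the count was 1 (Fpr2) with 2 groups fitted and 1 (Fpr2) without naïve replicates 16 and 17. Leaving out each mouse in turn gave counts of 10 to 12 for saline against naïve, 4 to 8 for IMO-3100 and 4 to 9 for IMO-8400 against saline, 0 for IMO-8400 against IMO-3100, and 4 to 7 for IMO-3100 and 3 to 7 for IMO-8400 against naïve. The IMO-8400 count was 4 without IMO-8400 replicate 4 or saline replicate 12 or 13, and against naïve it was 7 without naïve replicate 19 or 20. The shares of all tested probe-sets given earlier belong to the main fit and do not apply to the counts of these runs. Differences near 0 changed sign. Clec4d in IMO-8400 against IMO-3100 was 0.0352 after quantile normalization and -0.27 to 0.12 with 1 mouse left out. With 1 mouse left out, Trem2 ran from -0.10 to 0.51 for IMO-8400 and -0.70 to 0.0038 for IMO-3100 against saline, Fpr2 from -0.15 to 0.11 for IMO-3100 against saline, and Clec7a from -0.19 to 0.90 for IMO-3100 against naïve. Without naïve replicates 16 and 17, Clec7a was -0.18 and Pglyrp1 -0.12 for IMO-3100 against naïve. Fpr2 in IMO-8400 against naïve skin and Clec4n in IMO-3100 against naïve skin were lost with 2 groups fitted (adjusted p = 0.052 and 0.135). The causes were not tested. Of the other single-gene values, 357 kept direction and call under the settings that changed the processing or left out naïve replicates 16 and 17 together, and 928 with 1 mouse left out. Signals near 2.02 limit Trem1, Trem3, Treml2, Pglyrp2 and the naïve Clec4e values.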
